A study of Mus musculus with 2 samples.

Results

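Amacrine cells, the inhibitory interneurons of the inner retina, were examined through 10 genes that encode transcription factors linked to this cell class: Tfap2a, Tfap2b, Tfap2c, Pax6, Ebf1, Ebf3, Nhlh2, Meis2, Neurod2 and Barhl2. The genes were taken as a list of names from the 25778 genes of the count table, by no rule on their measured values, but with earlier results of these data known. They were followed in the 1621 cells annotated as amacrine cells (AC) among 30943 retinal cells. The AC lay in 3 deposited clusters, numbered 6, 14 and 15, which are named here by their numbers. Deposited cluster 6 also held cells annotated as ganglion and horizontal cells, and only its AC are counted below. The 2 libraries came from whole retinas of mice at 30 days of age (P30), with 1 mouse per genotype. The Ptbp1-Ctrl mouse carried Chx10-Cre and unmodified Ptbp1, and the Ptbp1-KO mouse was Chx10-Cre;Ptbp1lox/lox, with both Ptbp1 alleles floxed. The Chx10-Cre transgene expresses Cre in progenitors of the retina, so their descendants, AC included, can lose the floxed part of Ptbp1, a gene whose RNA-binding product holds back neuronal splice forms. Both mice carried the Cre transgene.

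Amacrine cells leave the progenitor pool under the control of a small set of transcription factors, and later factors of the AP-2, EBF, basic helix-loop-helix and homeodomain families mark their subtypes. Most amacrine cells release either glycine or GABA. The glycine transporter gene Slc6a9 marks the first class, and the GABA-synthesizing enzymes Gad1 and Gad2 mark the second.

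Each level below is given as CPM, the unique molecular identifiers (UMIs) of a gene per 1000000 UMIs summed over the cells of a library and cell group. With 1 mouse per genotype no test between genotypes was possible, so every difference compares these 2 libraries, and all intervals are exact 95% intervals that cover counting error only. The clusters were built from the expression of these same cells, so differences between clusters are descriptions. The AC of Ptbp1-Ctrl numbered 676 with 1956373 UMIs and a median of 2601 UMIs per cell, and those of Ptbp1-KO numbered 945 with 3857457 UMIs and a median of 3928. Of the AC markers, Gad1 had 209 and 267 CPM in AC of Ptbp1-Ctrl and Ptbp1-KO against 1.46 and 2.001 CPM in rods, and Slc6a9 had 609.8 and 653 CPM against 43.0 and 51.5 CPM in rods, so the AC annotation held by these markers. The rod gene Sag had 2051 and 1761 CPM in AC against 11480 and 11230 CPM in rods, and Gnat1 had 938.5 and 1036 CPM against 5362 and 5395 CPM, so rod RNA was present in the AC profiles. Ptbp1 had 14, 13 and 14 UMIs in clusters 6, 14 and 15 of Ptbp1-Ctrl and 1, 0 and 1 in Ptbp1-KO. The study's methods describe female mice, but both libraries held 5 or 6 Xist UMIs and at least 1413 UMIs of each of the Y-linked genes Ddx3y, Eif2s3y, Kdm5d and Uty, which goes against that description. In all, 63 cell barcodes occurred in both libraries, of which 1 AC of Ptbp1-Ctrl and 4 AC of Ptbp1-KO carried one, and leaving out the cells with such a barcode left the median log2 ratio of the 10 genes between the libraries at 0.09.

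The promoters of 4 of the genes are shown first, because they belong to the pairs that separated clusters 14 and 15 in the levels that follow. Each line holds the 250 bases before the RefSeq transcription start of the gene, which can differ from the gene start given with the levels, 5′ to 3′ on the strand of the gene, from RefSeq on the GRCm38.p6 (mm10) build. Capitals mark matches on either strand to the core letters of 3 motifs of the factors' own families: CCCNNGGG for EBF factors, CANNTG (the E-box) for basic helix-loop-helix factors such as Nhlh2 and Neurod2, and GCCNNNGGC for AP-2 factors. None of the marked matches overlap each other.
Ebf3, chr7:137314446-137314695, minus strand: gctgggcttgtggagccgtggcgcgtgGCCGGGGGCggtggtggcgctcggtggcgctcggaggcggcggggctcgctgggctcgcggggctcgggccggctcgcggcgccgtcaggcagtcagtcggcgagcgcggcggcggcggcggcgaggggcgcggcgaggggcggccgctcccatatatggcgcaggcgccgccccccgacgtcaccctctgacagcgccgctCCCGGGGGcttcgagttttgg
Nhlh2, chr3:102009895-102010144, plus strand: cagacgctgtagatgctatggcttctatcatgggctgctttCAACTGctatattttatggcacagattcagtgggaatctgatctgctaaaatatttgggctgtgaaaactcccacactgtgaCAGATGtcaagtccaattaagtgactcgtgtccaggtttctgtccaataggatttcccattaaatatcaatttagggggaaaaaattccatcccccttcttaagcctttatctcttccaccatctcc
Tfap2b, chr1:19211804-19212053, plus strand: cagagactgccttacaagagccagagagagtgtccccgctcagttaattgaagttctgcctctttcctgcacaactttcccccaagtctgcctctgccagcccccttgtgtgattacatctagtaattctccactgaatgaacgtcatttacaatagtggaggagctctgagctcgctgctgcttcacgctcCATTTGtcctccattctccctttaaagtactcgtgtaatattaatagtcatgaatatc
Neurod2, chr11:98329646-98329895, minus strand: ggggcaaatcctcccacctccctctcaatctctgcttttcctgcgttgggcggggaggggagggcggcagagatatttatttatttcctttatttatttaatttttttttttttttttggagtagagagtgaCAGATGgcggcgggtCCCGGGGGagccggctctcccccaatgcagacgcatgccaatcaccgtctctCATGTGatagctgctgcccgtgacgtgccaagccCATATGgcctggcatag
In Ebf3 the EBF match began 21 bases before the start and the AP-2 match 223 bases before it. In Nhlh2 the E-boxes began 209 and 127 bases before the start, and in Tfap2b the only match was an E-box at 58. Neurod2 held 3 E-boxes, beginning 118, 51 and 17 bases before the start, and an EBF match at 103. Among 32851 mouse promoters of the same 250 bases, 11.8% held the EBF letters, 66.2% held an E-box and 13.7% held the AP-2 letters, so such matches occur in many promoters and describe the sequence only. Of the 10 genes, 9 had a promoter in the table used, and these had 12 promoters in all. The other 5 with an entry were Tfap2a, Pax6, Meis2, Barhl2 and Ebf1, of which Tfap2a, Pax6 and Ebf1 had a further start each.

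The first question was which retinal cells carried the 10 genes. In both libraries 9 of the 10 had their highest level in AC among the 5 cell types with at least 1000000 UMIs, namely rods, cones, bipolar cells (BC), AC and Müller glia (MG), beside 16.8% of 19167 genes over the whole table. The exception was Meis2. For 6 genes (Tfap2a, Tfap2b, Tfap2c, Ebf3, Nhlh2 and Barhl2) the level in AC was at least 4 times that of the next type in both libraries, beside 2.42% of all genes. The smallest such margin was that of Barhl2, at 5.86 times the level in MG of Ptbp1-Ctrl. Both counts describe a list chosen for its link to AC and do not test that link.

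**Figure D1:**
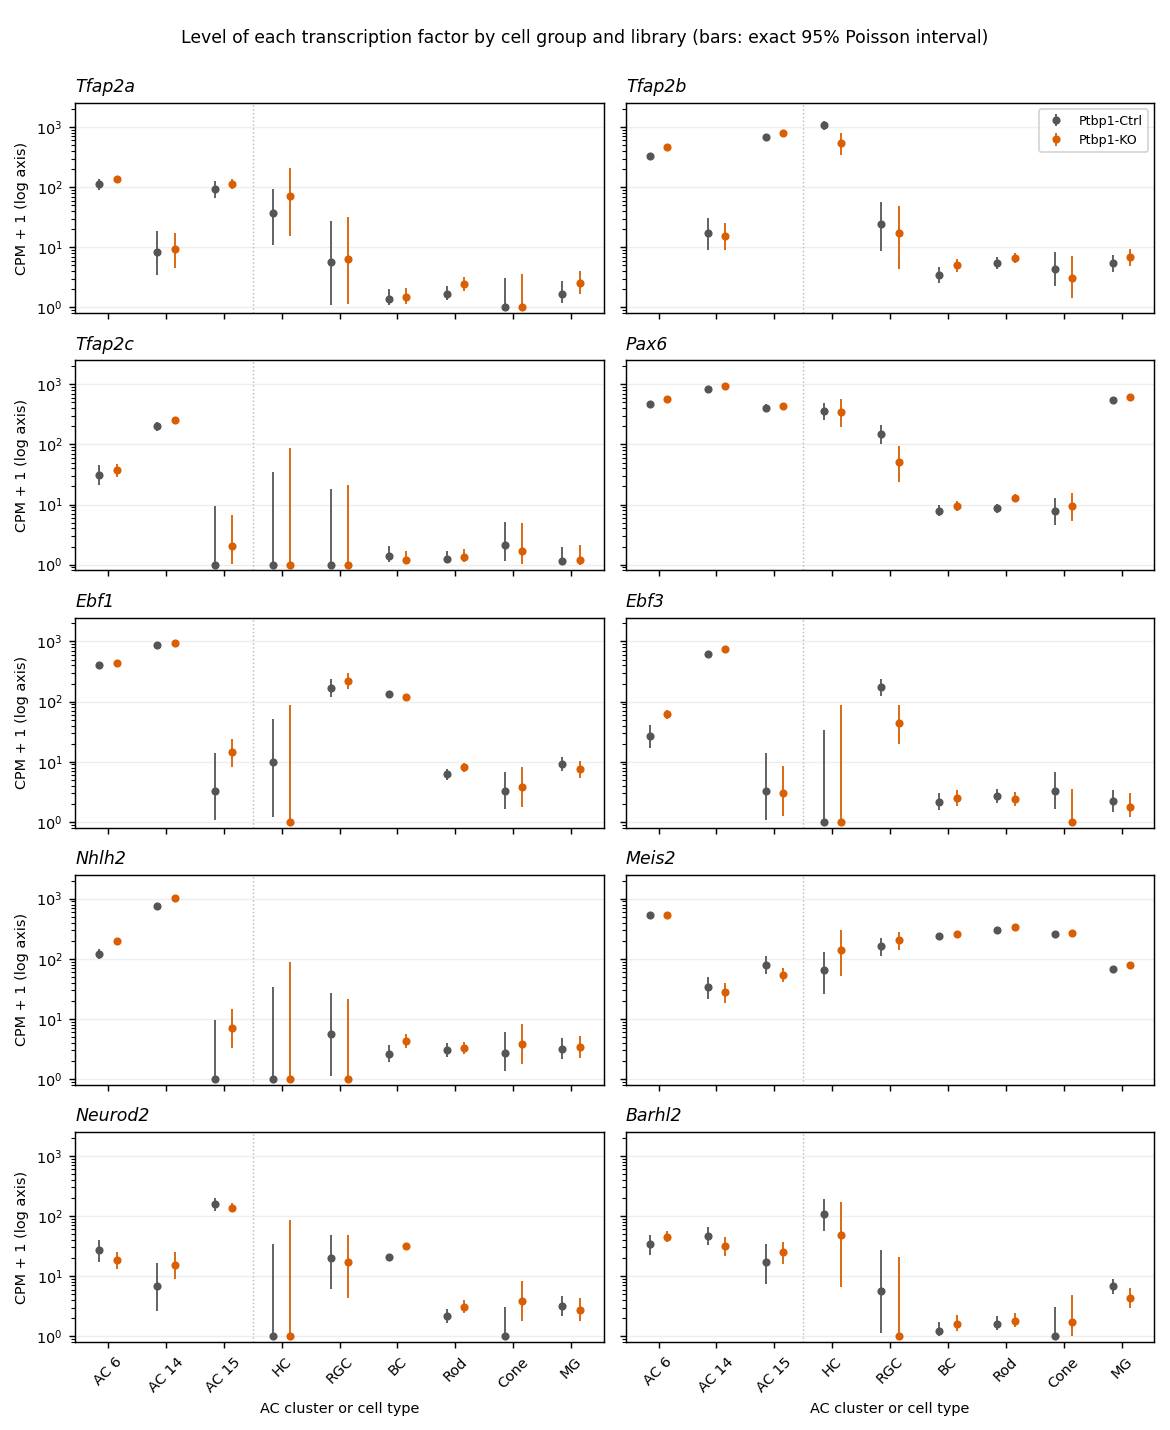
Level of each of the 10 genes, as CPM + 1 on a log axis, in the 3 AC clusters and the 6 other cell types of Ptbp1-Ctrl (grey) and Ptbp1-KO (orange), with exact 95% Poisson intervals. Ebf3, Nhlh2 and Tfap2c stood highest in AC cluster 14, Tfap2b and Neurod2 were higher in cluster 15 than in the other AC clusters, Meis2 was highest in cluster 6, and Pax6 was also high in MG.

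The AP-2 factors bind DNA as dimers, and Tfap2a and Tfap2b are known to act together in horizontal and amacrine cell development. Tfap2a (chromosome 13, 40715302 to 40738376) had 71.1 CPM in AC of Ptbp1-Ctrl (interval 59.7 to 83.9) and 99.0 CPM in Ptbp1-KO (89.4 to 110). AC held 86.3% and 91.0% of its UMIs. Its level was highest in clusters 6 (110 and 137 CPM) and 15 (92.1 and 114 CPM), whose intervals overlapped in each library, and it was 7.46 and 8.27 CPM in cluster 14. Cones had no Tfap2a UMI in either library. Tfap2a overlaps the annotated gene Gm26688, as Pax6 overlaps Pax6os1, Ebf1 overlaps Gm12158 and Ebf3 overlaps Gm10578. Whether counting used the strand was not given in the sources used here, so reads of these pairs may not be told apart.

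Tfap2b (chromosome 1, 19208914 to 19238576) was, like Tfap2a, low in cluster 14, but it led in cluster 15 rather than cluster 6. It had 677 CPM in cluster 15 of Ptbp1-Ctrl (602 to 759) and 799 CPM in Ptbp1-KO (744 to 857), with 328 and 472 CPM in cluster 6 and 16.4 and 14.5 CPM in cluster 14. Cluster 14 was thus the one AC cluster with little Tfap2a and Tfap2b. Outside AC, horizontal cells (HC) carried Tfap2b at 1065 CPM in Ptbp1-Ctrl, and 537 in Ptbp1-KO, from 118 UMIs in 17 cells and 23 UMIs in 7 cells. In Ptbp1-Ctrl this lay above cluster 15 beyond counting error, and in Ptbp1-KO the intervals overlapped. HC markers (Onecut1, Onecut2, Lhx1 and Calb1) summed to 396 and 460 CPM in cluster 15, of which Calb1 gave 325 and 387, while Lhx1 had no UMI there. In HC the same list summed to 6527 and 5041 CPM. The part of HC in the Tfap2b level of cluster 15 was not tested.

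Tfap2c (chromosome 2, 172549593 to 172558622) encodes the third AP-2 factor of the list and did not share the pattern of its relatives. It had 201 CPM in cluster 14 of Ptbp1-Ctrl (169 to 238) and 252 CPM in Ptbp1-KO (222 to 286), 30.5 and 35.9 CPM in cluster 6, and 0 and 1 UMI in cluster 15. AC held 94.2% and 97.2% of its UMIs, and no HC or retinal ganglion cell (RGC) of either library had one. Across the AC clusters the 3 AP-2 genes therefore divided into a pair low in cluster 14 and a single gene high there.

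Ebf1 and Ebf3 belong to the EBF family of helix-loop-helix factors, which are known in the retina from subsets of amacrine, bipolar and ganglion cells. Ebf1 (chromosome 11, 44617317 to 45008091) had 876 CPM in cluster 14 of Ptbp1-Ctrl (807 to 950) and 954 CPM in Ptbp1-KO (894 to 1018), 412 and 433 CPM in cluster 6, and 2.30 and 13.4 CPM in cluster 15, from 1 and 13 UMIs. It was not particular to AC: BC had 131 and 118 CPM and RGC 169 and 223 CPM. In Ptbp1-Ctrl, BC held 54.0% of the Ebf1 UMIs, and in Ptbp1-KO 38.3%, against 39.5% and 56.0% in AC.

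Ebf3 (chromosome 7, 137193673 to 137314445) was far more restricted than Ebf1. It had 610 CPM in cluster 14 of Ptbp1-Ctrl (553 to 672) and 737 CPM in Ptbp1-KO (684 to 793). Cluster 6 had 25.8 and 60.3 CPM, and cluster 15 had 1 and 2 UMIs. Cluster 14 held 94.7% of the Ebf3 UMIs of AC in Ptbp1-Ctrl and 85.8% in Ptbp1-KO. RGC were the only other type with a level above 3 CPM in either library, with 174 CPM (37 UMIs in 7 of 124 cells) in Ptbp1-Ctrl and 43.6 CPM (8 UMIs in 5 of 97 cells) in Ptbp1-KO.

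Nhlh2 (chromosome 3, 102010076 to 102015492) encodes a basic helix-loop-helix factor known from hypothalamic neurons. It had 743 CPM in cluster 14 of Ptbp1-Ctrl (679 to 811) and 1017 CPM in Ptbp1-KO (955 to 1083), 121 and 194 CPM in cluster 6, and 0 and 6 UMIs in cluster 15. Every other cell type of both libraries was below 5 CPM. Nhlh2, Ebf3 and Tfap2c thus each had at least 5.26 times the level in cluster 14 that they had in the next AC cluster, in both libraries.

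Neurod2 (chromosome 11, 98325415 to 98329648) encodes a neuronal basic helix-loop-helix factor. It had 157 CPM in cluster 15 of Ptbp1-Ctrl (122 to 199) and 136 CPM in Ptbp1-KO (114 to 162), against 25.8 and 17.7 CPM in cluster 6 and 5.97 and 14.5 CPM in cluster 14. BC had 19.6 and 31.1 CPM and, being more numerous, held 60.4% and 58.5% of its UMIs. Cluster 15 was therefore the part of AC with both Neurod2 and the highest Tfap2b.

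Of the homeodomain factors, Meis2 (chromosome 2, 115863064 to 116065839), a TALE-class factor known from GABAergic amacrine cells, had 536 CPM in cluster 6 of both libraries (488 to 588 and 504 to 570), 78.3 and 53.7 CPM in cluster 15 and 32.8 and 26.9 CPM in cluster 14. Rods had 298 and 343 CPM, cones 260 and 271, and BC 240 and 253, so rods, cones and BC all had more Meis2 than AC clusters 14 and 15. Within AC, cluster 6 held 89.1% and 93.0% of Meis2 UMIs, while AC as a whole held 6.72% and 11.7% of the Meis2 UMIs of the libraries.

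Pax6 (chromosome 2, 105668900 to 105697364), the paired-domain factor required for eye development, was present in all 3 AC clusters. It had 824 CPM in cluster 14 of Ptbp1-Ctrl (756 to 895) and 918 CPM in Ptbp1-KO (859 to 980), 471 and 564 CPM in cluster 6, and 405 and 428 CPM in cluster 15. MG had 539 CPM (520 to 558) and 614 CPM (592 to 636), below cluster 14 in each library, and held 69.8% and 53.8% of all Pax6 UMIs. MG markers (Glul, Rlbp1, Apoe, Sox9 and Slc1a3) summed to 1280 and 1068 CPM in cluster 14, 344 and 248 CPM in cluster 6 and 157 and 161 CPM in cluster 15, against 21970 and 22840 CPM in MG. The part of MG RNA in the Pax6 level of cluster 14 was not tested. Taken over all AC, Pax6 exceeded MG by 1.07 and 1.008 times only, and that order turned in at least 1 library when each cell was thinned to 1000 UMIs, when CPM were averaged per cell or when the cells of highest doublet score were left out.

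Barhl2 (chromosome 5, 106452523 to 106458166), a homeobox factor of amacrine and ganglion cell development, was the one gene without a stable leading cluster. In Ptbp1-Ctrl it had 46.3 CPM in cluster 14 and 32.9 CPM in cluster 6, and in Ptbp1-KO 31.0 and 44.2 CPM, with overlapping intervals in both libraries. Cluster 15 had 16.1 and 23.8 CPM. HC of Ptbp1-Ctrl had 108 CPM from 12 UMIs, with an interval (55.97 to 189) that overlapped that of cluster 14, and HC of Ptbp1-KO had 2 UMIs, under the limit of 3 counts.

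**Figure D2:**
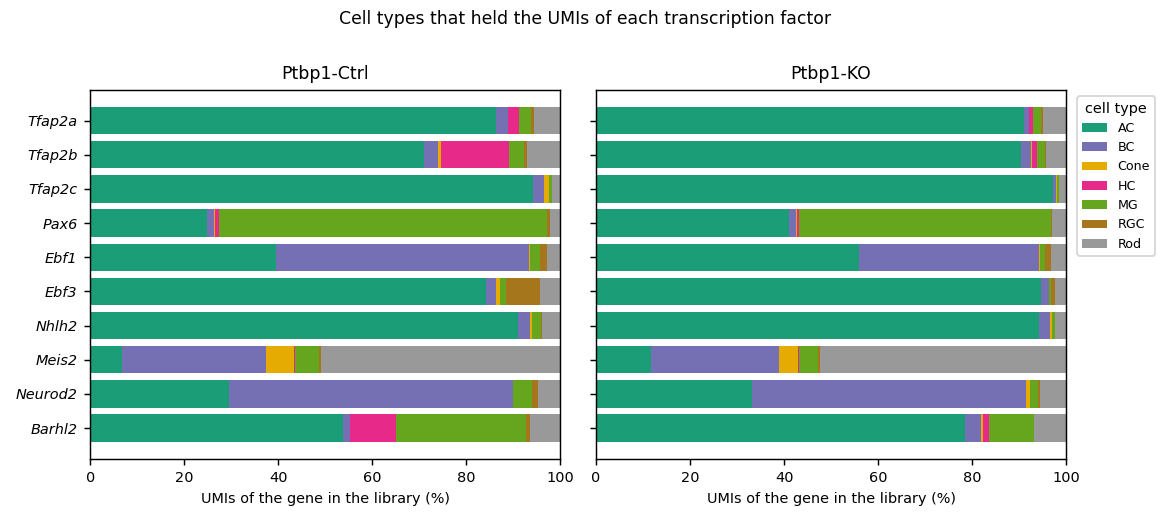
Share of the UMIs of each gene that lay in each of the 7 annotated cell types of Ptbp1-Ctrl and Ptbp1-KO, in percent of all UMIs of that gene in the library. AC held at least 84.2% of the UMIs of Tfap2a, Tfap2c, Ebf3 and Nhlh2 in both libraries, MG held most Pax6 UMIs, BC most Neurod2 UMIs, and rods most Meis2 UMIs.

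Set side by side, the AC clusters differed in which factors they carried. In both libraries the same cluster led for 9 of the 10 genes, beside 56.9% of 12999 genes with at least 20 UMIs in AC, and for 5 genes (Tfap2c, Ebf3, Nhlh2, Meis2 and Neurod2) that cluster had at least 4 times the level of the next, beside 4.07% of all genes. Among the 3 AC clusters, Nfia, one of the other transcription factors listed for inner retinal neurons, was highest in cluster 15 (1589 and 1335 CPM), as was Prox1 (841 and 846 CPM). Nfix (704 and 753 CPM), Nfib (479 and 534 CPM) and Tcf4 (1503 and 1633 CPM) were highest in cluster 14. The early amacrine factor Ptf1a had no UMI in AC. Of 10 related family members that could be compared, among them Nhlh1, Meis1 and Neurod4, 4 were highest in AC of the 5 cell types in both libraries, and of 17 other listed transcription factors 7 were, beside 16.8% of 19167 genes.

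The share of cells in which each gene was seen showed how far the levels were spread over cells. For this, 1000 UMIs were drawn from each cell, and cells with fewer were dropped, which removed 51 of 676 AC of Ptbp1-Ctrl and 53 of 945 of Ptbp1-KO. In cluster 14, Ebf1 was seen in 56.4% of cells in Ptbp1-Ctrl (124 of 220) and 62.6% in Ptbp1-KO (134 of 214), and Pax6 in 55.9% and 59.8%. Ebf3 was seen in 45.5% and 50.9% of the same cells. Without thinning, Ebf1 was seen in 84.3% and 92.5% and Ebf3 in 75.8% and 90.2%. Most cells of cluster 14 thus carried Ebf1, Ebf3 and Pax6 in both libraries. Nhlh2 was seen in 43.2% and 59.3% and Tfap2c in 13.6% and 28.5% of the thinned cells of cluster 14. At 700 UMIs per cell the shares were 35.9% and 43.0% for Nhlh2 and 14.8% and 10.75% for Tfap2c, so the difference between the libraries shrank for Nhlh2 and turned for Tfap2c.

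In cluster 15, Tfap2b was seen in 38.3% and 44.98% of thinned cells (68.8% and 81.8% unthinned), Pax6 in 31.2% and 29.7%, and Neurod2 in 16.9% and 11.2%. In the same cluster no thinned cell of either library had a UMI of Tfap2c or Ebf3, which allows, by a limit of 3 counts, up to 1.95% and 1.20% of cells with a UMI at this depth. In cluster 6, Pax6 was seen in 31.1% and 36.1%, Meis2 in 29.1% and 28.7%, Ebf1 in 21.5% and 19.6% and Tfap2b in 18.3% and 22.8%. Pax6 was thus the most widely seen of the 10 genes in cluster 6 at this depth. Rods, which should lack most of the factors, served as background at a median depth of 1088 and 1288 UMIs against 2601 and 3928 UMIs in AC. At 1000 UMIs per cell, 9 of the genes were seen in at most 1.07% of rods, and Meis2 in 21.0% and 24.4%. The Meis2 shares in AC clusters 14 (0.909% and 2.80%) and 15 (5.19% and 2.81%) lay below that of rods.

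**Figure D3:**
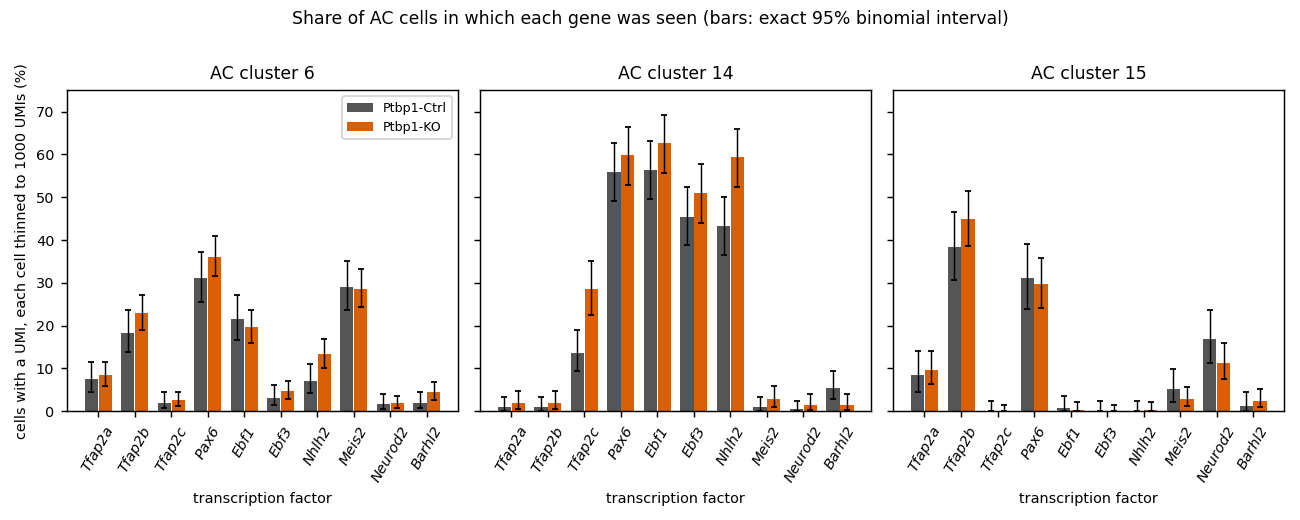
Percent of AC with at least 1 UMI of each gene in clusters 6, 14 and 15 of Ptbp1-Ctrl (grey) and Ptbp1-KO (orange), after each cell was thinned to 1000 UMIs, with exact 95% binomial intervals. Pax6, Ebf1, Ebf3 and Nhlh2 were seen in 43.2% to 62.6% of cluster 14 cells, Tfap2b in 38.3% and 44.98% of cluster 15 cells, and no gene passed 36.1% in cluster 6.

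Cluster 6 held the widest mixture, and pairs of genes were counted in its cells to see which factors occurred together. The number of thinned cells with both genes was set beside the number that the product of their 2 shares gives. Tfap2b and Ebf1 were seen together in 3 of 251 cells of Ptbp1-Ctrl (product 9.90) and in 4 of 429 cells of Ptbp1-KO (product 19.2). Tfap2b and Nhlh2 were together in 0 and 3 cells (products 3.30 and 13.0). Tfap2b and Ebf1 or Nhlh2 were thus seen in mostly separate cells of one cluster, and with all UMIs of each cell the Tfap2b and Ebf1 count was 0.287 and 0.199 times the product. With all UMIs, Tfap2b and Nhlh2 were together in 6 and 14 cells, at 0.426 and 0.373 times the product. Ebf1 and Meis2 shared 8 and 13 cells (products 15.7 and 24.1), and Tfap2b and Meis2 shared 9 and 16 (products 13.4 and 28.1).

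Other pairs in cluster 6 occurred together more often than the product. Tfap2a and Tfap2b shared 7 and 22 cells (products 3.48 and 8.22), Ebf1 and Nhlh2 shared 7 and 28 cells (products 3.87 and 11.2), and Ebf1 and Ebf3 shared 8 and 14 cells (products 1.72 and 3.92). All 8 Ebf3 cells of Ptbp1-Ctrl and 14 of the 20 of Ptbp1-KO also had Ebf1. Without the cells of highest doublet score the 6 pairs followed there (Tfap2b with Ebf1, Nhlh2 or Meis2, Ebf1 with Meis2 or Nhlh2, and Tfap2a with Tfap2b) stayed on the same side of the product. Inside cluster 14, where most cells carried Ebf1, Ebf3 and Nhlh2, the pairs of these genes were close to the product, as for Ebf1 and Ebf3 with 63 cells (product 56.4) and 74 cells (product 68.3).

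Over all AC, Tfap2b and Ebf3 were seen together in 0 of 625 and 1 of 892 thinned cells, although each was present in 107 to 214 cells. Ebf3 and Meis2 were together in 0 and 6 cells. At 1000 UMIs, 20.5% of AC in Ptbp1-Ctrl and 20.1% in Ptbp1-KO had no UMI of any of the 10 genes, and 7.73% and 3.74% of cluster 14 cells had none. Among rods, 97.8% and 97.04% had no UMI of the 9 genes other than Meis2. At this depth a cell without a UMI cannot be read as a cell without the transcript.

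The transmitter genes, which the choice of the 10 factors did not use, gave a division of AC that overlapped with the clusters, described here without a test. Cells with a Slc6a9 UMI and no Gad1 or Gad2 UMI numbered 367 in Ptbp1-Ctrl and 498 in Ptbp1-KO. Cells with a Gad1 or Gad2 UMI and no Slc6a9 UMI numbered 105 and 173, and all of them lay in cluster 6. A further 41 and 86 AC had both and 163 and 188 had neither, and these were left out. The Slc6a9 cells made up 83.9% and 84.6% of AC in cluster 14, 79.4% and 85.0% in cluster 15, and 18.1% and 21.3% in cluster 6. The Gad cells were deeper, with median UMIs of 4195 and 5955 against 2693 and 3973.

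In both libraries 5 genes were higher in Slc6a9 cells. Ebf3 had 333 and 320 CPM in Slc6a9 cells and 0 and 2 UMIs in Gad cells. Ebf1 had 588 and 610 CPM against 54.0 and 10.1 CPM (log2 ratio 3.45, 2.86 to 4.10, and 5.91, 5.03 to 6.98). Neurod2 had 66.5 and 76.1 CPM against 6.75 and 1.012 CPM, the last values resting on 3 and 1 UMIs. Ebf3 and Neurod2 thus had at most 3 UMIs in the Gad cells of a library, while Ebf1 had 24 and 10. Nhlh2 kept 92.2 and 102 CPM in Gad cells against 417 and 450 CPM (log2 2.18, 1.71 to 2.68, and 2.14, 1.84 to 2.45), and Tfap2c 51.7 and 50.6 CPM against 104 and 106 CPM (log2 1.002, 0.34 to 1.72, and 1.07, 0.62 to 1.55). When cells were thinned to 1000 UMIs before the classes were set, the 5 genes stayed on the same side, but the log2 ratios of Ebf1 became 4.18 and 2.73, from 3 and 13 UMIs in Gad cells, so that the order of the libraries turned. The interval of Tfap2c then included 0 in Ptbp1-Ctrl (log2 0.26, −1.09 to 1.86).

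In the other direction, Meis2 had 58.9 and 50.9 CPM in Slc6a9 cells against 787 and 770 CPM in Gad cells (log2 −3.74, −4.15 to −3.35, and −3.92, −4.23 to −3.62). Tfap2a had 43.7 and 68.2 CPM against 157 and 204 CPM (log2 −1.85 and −1.58), and Tfap2b 269 and 409 CPM against 459 and 676 CPM (log2 −0.77 and −0.73). Both intervals of each of these 3 genes excluded 0. For Barhl2 the log2 ratios were −0.28 (−1.12 to 0.60) and −0.85 (−1.41 to −0.28). Pax6 was nearly equal in the classes, at 629 and 641 CPM against 609 and 651 CPM (log2 0.05, −0.16 to 0.26, and −0.02, −0.16 to 0.12).

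Since all Gad cells lay in cluster 6, the comparison was repeated within that cluster, between 53 and 102 Slc6a9 cells and the 105 and 173 Gad cells. Ebf1 remained higher in the Slc6a9 cells (log2 4.18 and 6.93, and 6.27 and 2.97 with thinning), with 976 and 1230 CPM there, beside 876 and 954 CPM over cluster 14. Meis2 remained lower (log2 −3.12 and −2.72), as did Tfap2b (−1.35 and −1.45). Pax6 was lower in the Slc6a9 cells of cluster 6 (log2 −0.72, −1.21 to −0.26, and −0.35, −0.60 to −0.11). The Pax6 interval of Ptbp1-KO included 0 when 2 UMIs were required (−0.24, −0.53 to 0.04) and with thinning (−0.34, −0.95 to 0.23), and that of Ptbp1-Ctrl stayed below 0 in both. Tfap2c took the opposite direction from that over all AC, with 0 UMIs in Slc6a9 cells and 23 in Gad cells of Ptbp1-Ctrl and 8 against 50 UMIs in Ptbp1-KO (log2 −1.15, −2.44 to −0.06). In Ptbp1-KO the interval of Tfap2c included 0 when 2 UMIs were required (log2 −0.55, −1.84 to 0.54) and with thinning (−0.78, −4.06 to 1.54). With thinning, Ptbp1-Ctrl had 0 against 6 UMIs and an upper bound of 1.39, so this direction did not hold beyond counting error there. Cluster 6 therefore held Slc6a9 cells with Ebf1, next to Gad cells with Meis2, Tfap2a and Tfap2b. Genes of the cholinergic starburst class were nearly missing from AC, with 0 and 3 Chat UMIs and 1 and 5 Slc18a3 UMIs.

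**Figure D4:**
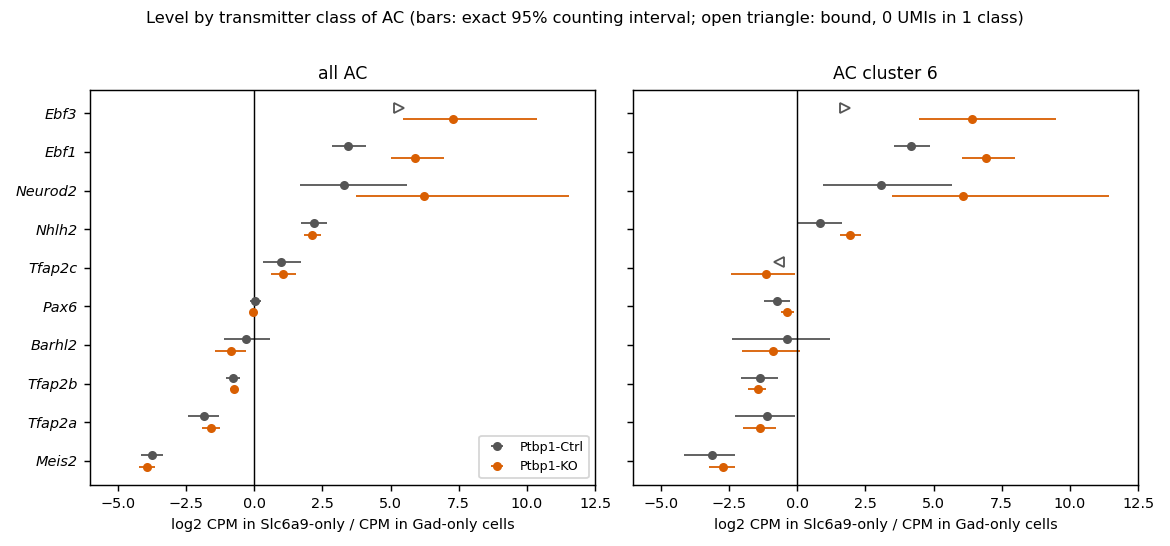
Log2 ratio of the level in AC with Slc6a9 and no Gad1 or Gad2 UMI over the level in AC with Gad1 or Gad2 and no Slc6a9 UMI, for each gene in Ptbp1-Ctrl (grey) and Ptbp1-KO (orange), over all AC (left) and within cluster 6 (right), with exact 95% intervals. Open triangles mark the interval bound where 1 class had 0 UMIs. Ebf3, Ebf1, Neurod2 and Nhlh2 lay to the right of 0 and Meis2, Tfap2a and Tfap2b to the left in both panels. Tfap2c changed sides, but its intervals in cluster 6 included 0 when cells were thinned, which is not drawn.

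The second question was whether the 10 genes differed between Ptbp1-KO and Ptbp1-Ctrl AC. Over all AC no gene of the 10 differed by 1.5-fold or more, beside 11.8% of 12999 genes that did (6.72% higher and 5.12% lower). The median log2 ratio of Ptbp1-KO over Ptbp1-Ctrl was 0.09 over the 10 genes, 6 of them higher, beside 0.0015 over all genes, 50.3% of them higher. Tfap2b had the largest difference, from 299 to 439 CPM (log2 0.56, 0.42 to 0.70), followed by Tfap2a (0.48, 0.20 to 0.77) and Nhlh2 (0.20, 0.06 to 0.34). For the other 7 genes the interval included 0, from Ebf1 at −0.07 (−0.18 to 0.05) to Meis2 at 0.13 (−0.02 to 0.29). The intervals of Pax6 (0.10, −0.00 to 0.20), Ebf1, Ebf3 (−0.04, −0.21 to 0.14), Tfap2c (−0.02, −0.29 to 0.27), Meis2, Neurod2 (−0.04, −0.41 to 0.33) and Barhl2 (0.08, −0.35 to 0.53) all lay inside 1.5-fold (0.585 on this scale) in both directions.

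The mix of clusters differed between the libraries. Cluster 14 made up 33.0% of AC in Ptbp1-Ctrl (29.5 to 36.7) and 22.6% in Ptbp1-KO (20.01 to 25.5), cluster 6 made up 43.3% and 50.6%, and cluster 15 made up 23.7% and 26.8%. Levels over all AC moved with this mix, so each cluster was compared on its own. In cluster 14, which made up more of the AC of Ptbp1-Ctrl, Nhlh2 was higher in Ptbp1-KO (log2 0.45, 0.30 to 0.61), as were Tfap2c (0.32, 0.02 to 0.64) and Ebf3 (0.27, 0.09 to 0.45), while Pax6 differed by 0.16 (0.00 to 0.31) and Ebf1 by 0.12 (−0.03 to 0.28). None of 8 genes with at least 20 UMIs reached 1.5-fold there, beside 16.8% of 9571 genes (8.29% higher and 8.55% lower).

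In cluster 6, 2 of the 10 genes passed 1.5-fold, both upward, beside 9.07% of 11295 genes that were higher and 6.45% that were lower by as much. Ebf3 went from 22 UMIs in 12 of 293 cells (25.8 CPM) to 116 UMIs in 64 of 478 cells (60.3 CPM), a log2 ratio of 1.22 (0.56 to 1.95). Nhlh2 went from 121 to 194 CPM (log2 0.68, 0.36 to 1.008). Both stayed past 1.5-fold when the cell with most UMIs of the gene was left out of each library (1.34 and 0.74). When each cell was thinned to 1000 UMIs, Nhlh2 stayed past 1.5-fold and Ebf3 did not. Tfap2b differed by 0.53 (0.33 to 0.73) and Pax6 by 0.26 (0.10 to 0.43), and Meis2 by −0.00 (−0.16 to 0.16). For rod RNA in cluster 6, the levels of Ptbp1-Ctrl and Ptbp1-KO were 2699 and 2064 CPM for Sag and 1279 and 1231 CPM for Gnat1, and the part of rod RNA in these differences was not tested.

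In cluster 15, none of 6 genes with at least 20 UMIs reached 1.5-fold, beside 18.6% of 8846 genes (10.2% higher and 8.41% lower). Tfap2b had a log2 ratio of 0.24 (0.04 to 0.44), with 677 and 799 CPM, and Neurod2 one of −0.20 (−0.63 to 0.24). When both libraries were given the same mix of the 3 clusters, their mean shares of AC UMIs, the log2 ratios over AC were 0.35 for Ebf3, 0.31 for Tfap2c, 0.51 for Nhlh2 and 0.11 for Ebf1, against −0.04, −0.02, 0.20 and −0.07 without weighting. With the same weights Tfap2b had 0.38 and Tfap2a 0.31, and Meis2 changed from 0.13 to −0.04. The median over the 10 genes became 0.25, and still none reached 1.5-fold. With this weighting the log2 ratios of Ebf1, Ebf3, Tfap2c and Meis2 changed sign, but their intervals without weighting all included 0. When cells of high doublet score were dropped instead, Ebf1, Ebf3 and Tfap2c also turned positive (0.0011, 0.0377 and 0.0558), and Meis2 stayed positive (0.14). The part of the cluster mix in these directions was not tested.

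**Figure D5:**
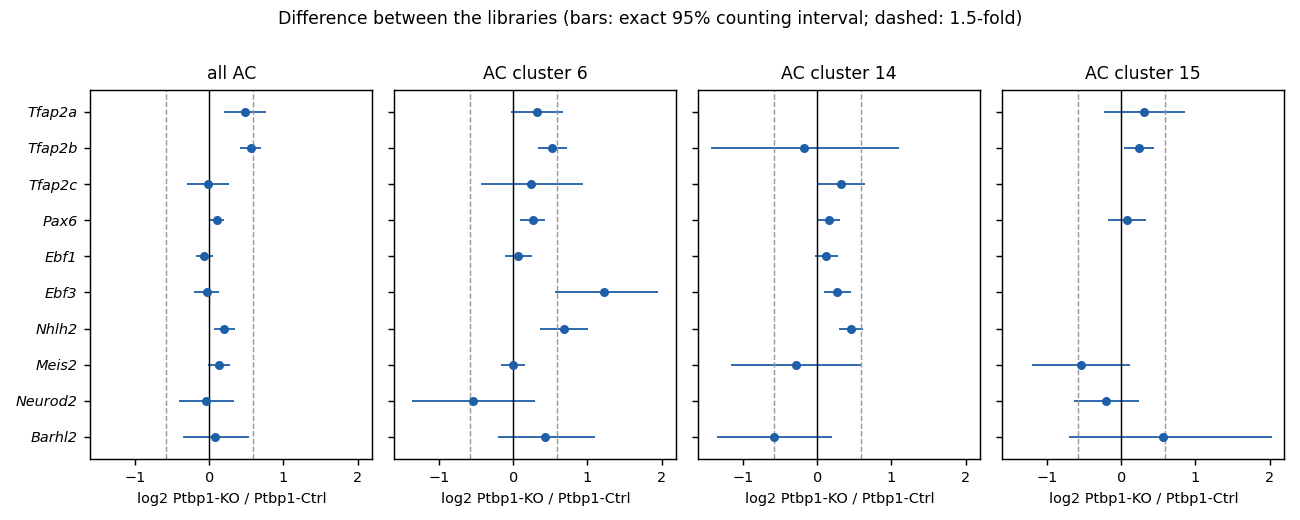
Log2 ratio of the level in Ptbp1-KO over that in Ptbp1-Ctrl for each gene in all AC and in clusters 6, 14 and 15, with exact 95% intervals for counting error and dashed lines at 1.5-fold. Genes with under 20 UMIs in a cluster are not drawn. In cluster 6, Ebf3 at 1.22 and Nhlh2 at 0.68 lay past the dashed line.

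Outside AC, Pax6 in MG had 539 and 614 CPM (log2 0.19, 0.12 to 0.26), and Ebf1 in BC had 131 and 118 CPM. Neurod2 in BC went from 19.6 CPM (16.9 to 22.6) to 31.1 CPM (27.7 to 34.7), with intervals that did not overlap. The other lists of AC genes stood as follows in AC, beside 11.8% of 12999 genes that differed by 1.5-fold or more there (6.72% higher and 5.12% lower). Of 7 family members with at least 20 UMIs, 2 passed 1.5-fold, both higher in Ptbp1-KO and with few UMIs: Nhlh1 with 19 and 68 UMIs and Tfap2d with 15 and 47. Of 16 other transcription factors none passed it, and Nfib, Nfix and Maf had log2 ratios of −0.31, −0.29 and −0.32. Of 9 transmitter genes 3 passed it, all higher in Ptbp1-KO, of which Ppp1r17 had 43 and 185 UMIs (log2 1.13, 0.64 to 1.64), and Slc5a7 and Th had 20 UMIs at most in a library. Slc6a9 differed by 0.10 (−0.00 to 0.20) and Gad1 by 0.35 (0.19 to 0.52).

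The genes whose levels ran most like those of the factors were found over 45 groups of cells, each the cells of 1 cluster, cell type and library with at least 100000 UMIs, among 5949 genes with at least 200 UMIs in AC. The correlations of log2(CPM + 5) are descriptions, and the groups share their 2 libraries and their depth. Tfap2a and Tfap2b were each other's closest match (Pearson r = 0.949). Tfap2c and Nhlh2 both ran closest to Prdm13, a PR-domain factor of amacrine development (r = 0.987 and 0.969), and to each other (r = 0.961). Ebf3 ran closest to Gpr149 (r = 0.956) and the glycine receptor gene Glra2 (0.901). Calb1 was the third match of Tfap2b (0.863), after Epha6 (0.901). Pax6 ran closest to Ptprf (0.926), Ebf1 to Ncam2 (0.862), Barhl2 to Cacng3 (0.907) and Neurod2 to Epha8 (0.837).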

How the data were processed

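Retinas were dissociated with papain and profiled with the 10x Genomics 3′ version 3.1 kit. The authors aligned reads to mm10 with Cell Ranger 7.0.1 and filtered cells in Seurat 4, and the gene annotation, use of introns and use of strand were not given in the sources used here. The deposited table held raw UMI counts per gene and cell, and the deposited cell table gave the total counts, percent of mitochondrial UMIs, cluster and cell type of each cell. All 30943 cells met the authors' filter, and cluster and type names were used as deposited.

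Counts were summed per library and cell group and scaled to CPM. Poisson and Clopper-Pearson intervals and the conditional binomial interval of a ratio were exact, and the ratio was tested on simulated data. Ratios were computed for genes with at least 20 UMIs over both libraries, and 1.5-fold was used as a rule of size. Cells were thinned by drawing 1000 UMIs without replacement. Doublets were not removed. A doublet score from simulated doublets (20 components, 40 neighbours) gave an alternative without the highest 5% of cells per library. The named genes were the 10 factors, Ptbp1, lists of family members, other transcription factors, transmitter genes and cell type markers, and for each factor the 3 genes of most like pattern, of which a selection is printed. Some listed genes, and results that rest on them, are not reported here. The 10 factors and all lists were chosen with earlier results of these data known. The study compared cells with a rank test, which was not used, because cells of 1 mouse are not replicates. Gene positions are those of GENCODE on GRCm38. Analyses used Python 3.11.15, numpy 2.4.6, scipy 1.17.1, pandas 2.3.3 and scikit-learn 1.9.0, with scaling alternatives from edgeR 4.0.16 and DESeq2 1.42.0.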

Additional observations from a re-analysis of the deposited data

Results flagged for a closer look

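For 3 factors the ratio of Ptbp1-KO over Ptbp1-Ctrl left 0 beyond counting error in opposite directions in different cell groups, with 1 library on each side, and the difference between the groups was not tested. Tfap2b was lower in HC of Ptbp1-KO (log2 −0.99, −1.70 to −0.34, from 7 cells) and higher in AC clusters 6 (0.53) and 15 (0.24). Pax6 was lower in RGC (log2 −1.57, −2.83 to −0.46, from 31 and 9 UMIs) and higher in AC clusters 6 (0.26) and 14 (0.16), in MG (0.19) and in rods (0.64). Rods held only 2.19% and 2.98% of the Pax6 UMIs and served above as background, and the part of background RNA in their ratio was not tested. Ebf3 was lower in RGC (log2 −1.99, −3.31 to −0.87) and higher in AC clusters 6 (1.22) and 14 (0.27). In Ptbp1-Ctrl, 14 of the 37 Ebf3 UMIs of RGC lay in 1 cell, and without the leading cell of each library the log2 ratio was −2.03. In the cells annotated RGC, the 9 RGC markers had a summed level of 3304 CPM (Ptbp1-Ctrl) and 2336 CPM (Ptbp1-KO), while the rod genes Sag (5478 and 6781 CPM) and Gnat1 (3215 and 4978 CPM) were higher in Ptbp1-KO, and their part in the Pax6 and Ebf3 differences was not tested.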

How the results depend on the processing

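The median log2 ratio of the 10 factors in AC stayed positive, from 0.0065 with CPM averaged per cell to 0.2468 with an equal mix of clusters, and none of the 10 reached 1.5-fold, under the alternatives given here (TMM, DESeq2 size factors, thinning, CPM averaged per cell, doublet score, equal cluster mix and, chosen after seeing the data, no shared barcodes). TMM and DESeq2 only shifted every log2 ratio by the same 0.017 and −0.003. Dropping the minimum count could change nothing here, because all 10 genes met it in AC. A subtraction of background RNA was scaled by genes that are not reported here, and its values are left out. With thinning the log2 ratio of Tfap2c in AC was 0.56 and that of Ebf3 −0.24. The number of factors highest in AC was 8 with thinning, with CPM averaged per cell or without high doublet scores (Pax6 dropped out), and 7 with RGC and HC included (Tfap2b and Barhl2 dropped out). The number of factors seen in a larger share of AC cells of Ptbp1-KO was 7 at 1000 UMIs per cell, 9 without thinning and 4 at 700 UMIs. Within clusters, 2 of 24 ratios passed 1.5-fold, against 4 of 17 with thinning (Nhlh2 and Barhl2 in cluster 6, Tfap2c in cluster 14, Neurod2 in cluster 15) and 4 of 23 without high doublet scores (Ebf3 and Nhlh2 in cluster 6, Barhl2 in cluster 14, Meis2 in cluster 15), both chosen after seeing the data. Over all genes, 15.5%, 16.8% and 18.6% passed it in clusters 6, 14 and 15 in the main setting, and these shares were not computed for the alternatives. The causes were not tested. Factors higher in Slc6a9 cells of both libraries numbered 5, 6 when 2 UMIs were required (Pax6 added) and 5 with thinning. No paired analysis was possible because there was 1 mouse per genotype, so differences between animals, dissociations and libraries cannot be told apart from the genotype. Depth limits RGC and HC, with 17 and 7 HC.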
